A study of Mus musculus with 8 samples.

Results

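The genes described here are the nuclear-encoded genes of the mitochondrial respiratory chain. They were found by symbol: every gene listed in the count tables whose name starts with Nduf (complex I), Sdha to Sdhd (complex II), Uqcr (complex III), Cox4 to Cox8 (complex IV) or Atp5 (complex V, the ATP synthase), without pseudogene symbols ending in -ps. The rule took 93 of 27923 genes: 38 of complex I, 4 of complex II, 8 of complex III, 18 of complex IV, 16 of complex V and 9 assembly factors named Ndufaf or Sdhaf. No measured value entered the rule.

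Lung tumors of KP mice were profiled by Seq-Well, a single-cell method that counts the 3′ ends of mRNA molecules by unique molecular identifiers (UMIs). The mice were chimeras of the C57BL/6 background made from KP embryonic stem cells, which carry p53 fl/fl, and tumors were initiated with intratracheal Adeno-SPC-Cre at 12 weeks of age and taken 16 weeks later. Cre in this virus is driven by the promoter of surfactant protein C, so recombination is directed at alveolar type II cells. In a chimera, stromal and immune cells can come from the stem cells or from the host embryo, which cannot be told apart here. The tumors came from 1 male and 1 female mouse, so sex differs between the tumors along with the mouse. In each of 2 tumors, every group shared this genotype and virus and the dye calcein NVOC, which becomes fluorescent when illuminated. Cells of the Healthy/Tumor Border were photoactivated in a live section and sorted (1 library per tumor), and cells of the Whole Tumor were not photoactivated (3 technical arrays per tumor). Each tumor therefore stands for 1 mouse, and the p-values below do not measure how a group of mice would vary. They measure only the spread between technical arrays, except where cell classes were compared across libraries of both tumors.

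Of 4343 deposited barcodes, 3894 had at least 200 genes and were kept, with median depths of 676 to 2526 UMIs per library and Tumor 2 Whole array 2 the shallowest. The cell names inside all 8 tables carry the number of the other tumor than the labels do, and the labels were followed, so "Tumor 1" and "Tumor 2" mean the tumor as labelled. The tables labelled Tumor 1 hold 686 Border and 1634 Whole barcodes and those labelled Tumor 2 hold 534 and 1489. These are the cell numbers given for the tumors of the same names in the methods. A total of 10 barcode sequences occurred in more than 1 library, on 56 kept barcodes. Barcodes were placed in classes by lists of marker genes that hold no respiratory chain gene, each needing at least 2 different markers and more than any other list. Epithelial markers were present: 154 barcodes were Krt+ tumor-like and 60 were Sftp+ tumor-like, although surfactant genes are also those of normal alveolar type II cells, which cannot be told apart here. The largest class was neutrophil-like (1491 barcodes, 304 of them with exactly 2 markers), followed by satellite-rich barcodes (663), which carry transcripts of satellite repeats and no class markers and had a median of 353 UMIs.

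The respiratory chain moves electrons from NADH (complex I) and succinate (complex II) through ubiquinone, complex III, cytochrome c and complex IV to oxygen. The protons pumped by complexes I, III and IV drive ATP synthesis by complex V. Most subunits are encoded in the nucleus, while the core of complexes I, III, IV and V is completed by mitochondrial genes (mt- symbols); complex II is entirely nuclear. Neutrophils are known for relying largely on glycolysis, while alveolar macrophages and epithelial cells are rich in mitochondria.

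Promoters of respiratory chain genes are textbook targets of the factors NRF1, GABP (an ETS factor) and YY1. Windows from 250 bases before to 50 after the start site were read from RefSeq promoters (GRCm38.p6), in which 77 of the 93 members had an entry, with 83 windows. The letters GCATGCGC (NRF1-type), on either strand, occurred in 13.3% of member windows and in 2.71% of all 32851 windows. CCGGAAG (ETS-type) occurred in 22.9% against 8.86%, and AAGATGGCG (YY1-type) in 10.8% against 1.40%. At least 1 of the 3 was found in 39.8% of member windows and 12.1% of all windows. A match describes letters and is not a binding site. The 4 windows below are shown as examples of members described in the results. Atp5b was the most abundant member, and Cox6a1 was the most abundant member of complex IV in the pooled neutrophil-like cells. Uqcrc1 and Atp5g3 passed the test between the border and the whole tumor. In that test members were called about as often as all genes, and the calls depended on the processing. Sequences run 5′ to 3′ on the strand of the gene, with matched letters in capitals.
Atp5b, chr10:128083057-128083356, + strand: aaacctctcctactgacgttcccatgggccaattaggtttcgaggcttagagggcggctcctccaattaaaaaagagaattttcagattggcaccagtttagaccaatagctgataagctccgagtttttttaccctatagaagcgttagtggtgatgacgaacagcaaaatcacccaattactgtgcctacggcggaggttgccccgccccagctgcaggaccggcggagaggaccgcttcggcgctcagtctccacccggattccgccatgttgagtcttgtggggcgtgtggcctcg
Cox6a1, chr5:115348909-115349208, - strand: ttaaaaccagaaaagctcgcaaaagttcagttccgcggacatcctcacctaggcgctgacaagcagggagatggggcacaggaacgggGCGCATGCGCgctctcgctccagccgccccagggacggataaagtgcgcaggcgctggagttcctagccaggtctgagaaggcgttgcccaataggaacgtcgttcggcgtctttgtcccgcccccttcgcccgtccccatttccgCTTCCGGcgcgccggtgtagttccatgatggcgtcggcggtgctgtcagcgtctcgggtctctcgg
Uqcrc1, chr9:108936398-108936697, + strand: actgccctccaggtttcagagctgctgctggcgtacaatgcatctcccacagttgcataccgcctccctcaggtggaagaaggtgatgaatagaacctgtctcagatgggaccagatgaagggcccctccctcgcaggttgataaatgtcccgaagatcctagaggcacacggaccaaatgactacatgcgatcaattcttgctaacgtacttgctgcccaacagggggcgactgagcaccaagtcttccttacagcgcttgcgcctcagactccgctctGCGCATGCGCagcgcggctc
Atp5g3, chr2:73911277-73911576, - strand: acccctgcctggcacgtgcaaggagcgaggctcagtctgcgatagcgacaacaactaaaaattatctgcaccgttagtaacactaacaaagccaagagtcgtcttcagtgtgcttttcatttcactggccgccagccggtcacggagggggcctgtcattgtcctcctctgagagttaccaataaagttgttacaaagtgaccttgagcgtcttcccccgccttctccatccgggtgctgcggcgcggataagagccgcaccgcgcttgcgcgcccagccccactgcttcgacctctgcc
In Cox6a1, the NRF1-type letters began 162 bases before the start site and the ETS-type letters 16 before it. The 10-base run of capitals in Cox6a1 and in Uqcrc1 holds the NRF1-type letters on both strands, overlapping. In Uqcrc1 the run began 30 bases after the start site. Atp5b and Atp5g3 had none of the 3 in these windows.

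The members took 49452 UMIs, 0.512% of all UMIs of kept barcodes. Complexes I and V contributed 28.9% and 28.7% of these, complex IV 24.6%, complex III 10.7%, complex II 4.70% and the assembly factors 2.28%. UMIs count molecules by their 3′ ends and are not scaled by length, so levels of different genes are set side by side as molecules. Atp5b, the catalytic beta subunit of ATP synthase, had 3640 UMIs. It was followed by Cox4i1, a core nuclear subunit of cytochrome c oxidase, with 3276, Atp5a1, the alpha subunit of ATP synthase, with 2275, and Cox6a1, another complex IV subunit, with 1941. These 4 genes held 22.5% of the members' UMIs. In complex I the most abundant were Ndufa2 (1028 UMIs) and Ndufa6 (875), both accessory subunits. Sdha, the flavoprotein that oxidises succinate, had 932, and Uqcrq, a small subunit of complex III, had 1143. At the other end, 14 members had under 50 UMIs, among them Cox7c and Atp5l with 36 each, while 81 members were found in all 8 libraries. How reads that match several gene copies were counted is not given in the sources used here, so the levels of members with near-identical copies or pseudogenes are uncertain.

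Cell classes differed in the share of UMIs that the members took, and the order was not that of the mt- genes (26 symbols, transfer and ribosomal RNAs included). The share was highest in Krt+ tumor-like cells, at 1.07%, followed by alveolar macrophage-like cells at 0.823%, Sftp+ tumor-like cells at 0.699%, dendritic-like cells at 0.599% and monocyte-like cells at 0.573%. C1q+ macrophage-like cells were at 0.542%, T or NK-like cells at 0.517% and B-like cells at 0.484%. The lowest shares were in neutrophil-like (0.409%), endothelial-like (0.364%), fibroblast-like (0.321%) and satellite-rich barcodes (0.248%). The mt- share instead was 13.6% in Sftp+, 13.1% in Krt+, 12.2% in T or NK-like and 11.6% in B-like cells, against 8.85% in alveolar macrophage-like and 4.49% in neutrophil-like cells. These mt- UMIs were mostly ribosomal RNA (mt-Rnr1 and mt-Rnr2), which made up 93.0% of them over all kept barcodes. The mt-encoded mRNAs of the chain alone took 1.45% of UMIs in Sftp+, 0.862% in Krt+, 0.833% in B-like, 0.768% in alveolar macrophage-like and 0.256% in neutrophil-like cells. Per UMI of these mRNAs there were 1.60 member UMIs in neutrophil-like and 1.24 in Krt+ cells, but 0.581 in B-like and 0.483 in Sftp+ cells. The Krt+ arrays were at 1.20, 2.01 and 0.596, so the place of Krt+ cells in this order varied by array. By library the ratio ran from 1.02 to 1.90 in neutrophil-like and from 0.305 to 1.09 in B-like cells. Neutrophil-like cells were higher in each library with enough barcodes of both. The classes came from different libraries in different proportions, so these pooled values are a description. Taken library by library, many classes overlapped. Neutrophil-like cells of the Tumor 1 Whole arrays (0.572% to 0.635%) were level with C1q+ macrophage-like cells of those arrays (0.535% to 0.595%). The only Sftp+ value with enough barcodes (0.610%) was below B-like cells of Tumor 1 (0.723% and 0.726%).

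**Figure D1:**
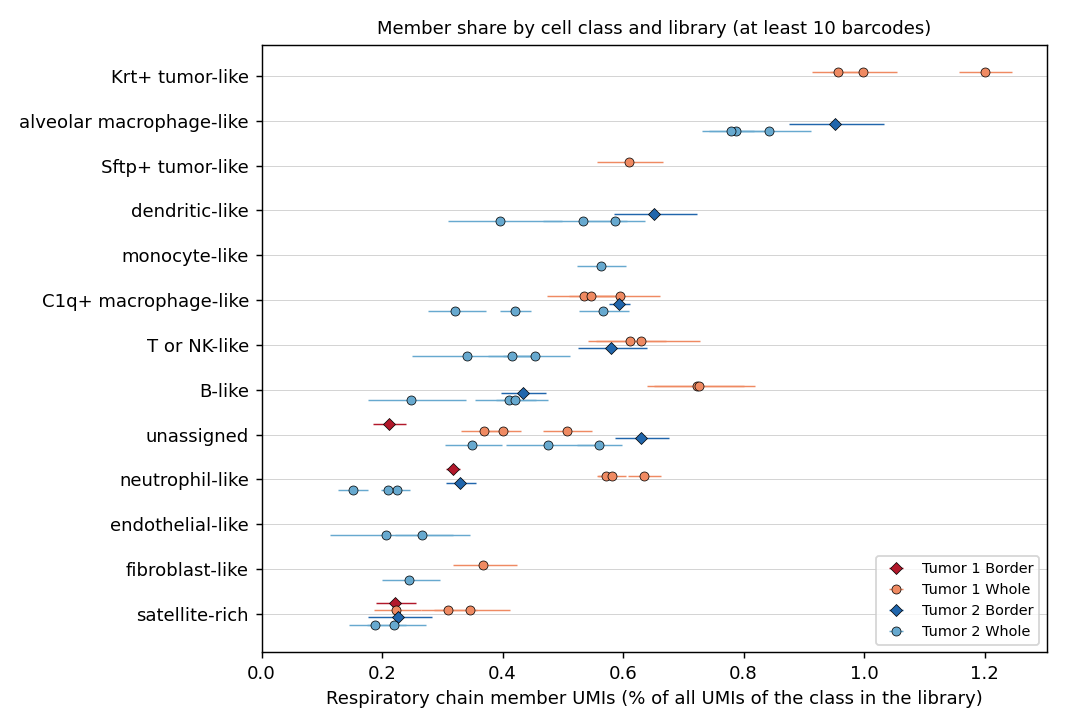
Share of UMIs taken by the 93 respiratory chain members (x axis, percent of all UMIs of a class in a library) for each class shown and library with at least 10 barcodes; bars are exact 95% binomial intervals, which cover counting error only. Krt+ tumor-like arrays of Tumor 1 sit between 0.957% and 1.20%, above the libraries of every other class plotted.

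Many single members were highest in the classes at the top of this order, but not all. Of the 71 members with at least 100 UMIs, 44 had their highest level, in UMIs per 1000000 UMIs (CPM), in Krt+ tumor-like cells, 14 in alveolar macrophage-like and 7 in Sftp+ cells, while B-like cells led for 3, monocyte-like cells for 2 and dendritic-like cells for 0. For 27 members the lowest class was endothelial-like and for 19 fibroblast-like, with neutrophil-like and monocyte-like cells lowest for 7 each. Endothelial-like, fibroblast-like and monocyte-like cells had the fewest UMIs (170959, 151593 and 181781, against 3635927 in neutrophil-like cells). Some members had few or 0 UMIs there, such as Ndufc1 with 0 in endothelial-like and fibroblast-like cells. Small classes reach an extreme more easily through counting error, so these tallies do not rank the classes. Cox4i1 ranged from 846 CPM in Krt+ cells to 158 in fibroblast-like cells, apart from satellite-rich barcodes at 109. Atp5b ranged from 779 CPM in Krt+ cells to 237 in fibroblast-like cells. In the pooled neutrophil-like cells the order within complex IV was different: Cox6a1 had 216 CPM, Cox4i1 199.7 and Cox8a, a small subunit, 182. In all other named classes Cox4i1 was above Cox6a1. The neutrophil-like order was not the same in every library. Cox4i1 was the higher of the pair in Tumor 1 Whole array 3 (291 against 241 CPM). It was also higher in Tumor 2 Whole arrays 1 (182 against 123 CPM) and 3 (162 against 132 CPM). In Tumor 2 Border the pair was level, with 46 UMIs each. In Tumor 1 Border Cox8a had 182 UMIs and Cox6a1 179.

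**Figure D2:**
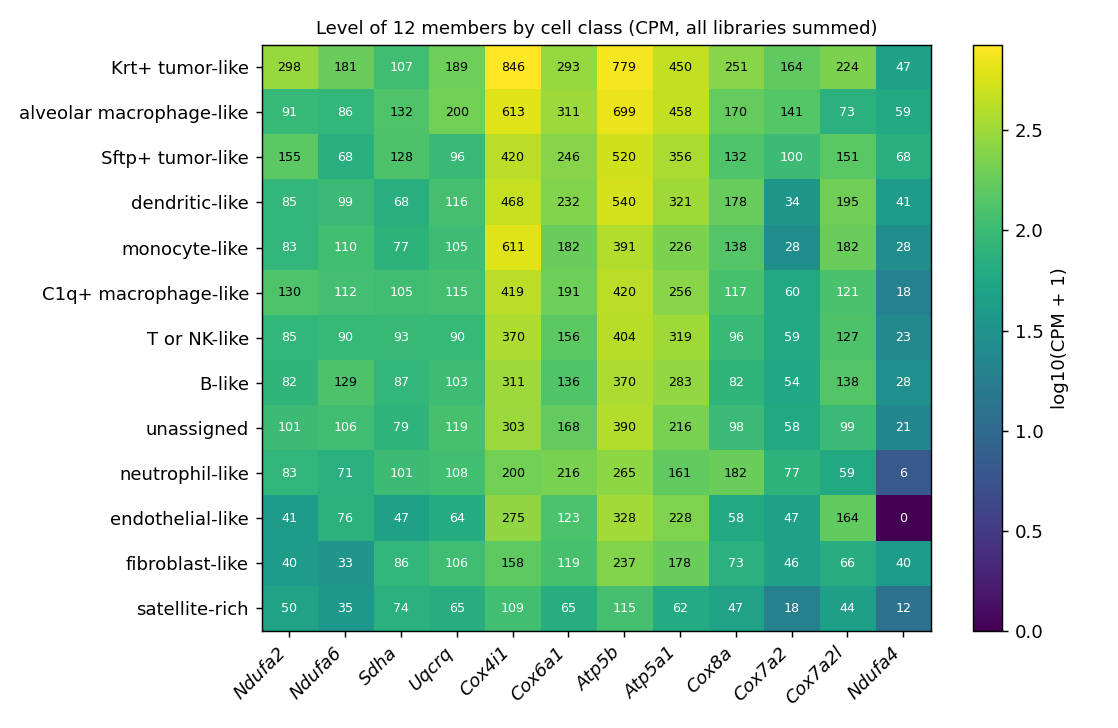
Level of 12 members (columns) in each cell class shown (rows), all libraries summed; numbers are CPM and colour is log10(CPM + 1). Cox4i1 and Atp5b are brightest in Krt+ tumor-like cells (846 and 779 CPM), and Ndufa4 is darkest in endothelial-like and neutrophil-like cells.

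Subunits with tissue isoforms were nearly all of the common form. The tissue-restricted isoforms Cox4i2 (10 UMIs), Cox6a2 (21), Cox6b2 (27), Cox7a1 (8), Cox7b2 (3), Cox8b (1) and Cox8c (6) were scarce beside Cox4i1 (3276), Cox6a1 (1941), Cox6b1 (846), Cox7b (775) and Cox8a (1403). Of the genes for subunit c of ATP synthase, Atp5g3 had 1018 UMIs and Atp5g1 77. Ndufa4, a small subunit of complex IV despite its name, had 194 UMIs. Complexes were assigned by symbol, so Ndufa4 and Ndufa4l2 are counted under complex I in every tally here. Atp5sl and Atp5s, whose RefSeq symbols are Dmac2 and Dmac2l, are likewise counted under complex V by symbol alone. The level of Ndufa4 was 5.50 CPM in neutrophil-like cells against 46.9 in Krt+, 59.0 in alveolar macrophage-like and 18.3 in C1q+ macrophage-like cells. Its paralog Ndufa4l2 had 1 UMI. Cox7a2, a subunit of complex IV, and Cox7a2l, a related protein that joins complexes III and IV, differed in their pooled ratio between classes. Cox7a2 made up 66.0% of the UMIs of both in alveolar macrophage-like cells (95% interval 55.5 to 75.4) and 56.9% in neutrophil-like cells (52.4 to 61.3). It made up 42.2% in Krt+ cells (35.8 to 48.9), 33.1% in C1q+ macrophage-like cells (27.4 to 39.2), 14.9% in dendritic-like cells (7.40 to 25.7) and 13.2% in monocyte-like cells (4.41 to 28.1). Within neutrophil-like cells the values by library were 67.5% in Tumor 1 Border, 54.8%, 61.3% and 47.4% in the Tumor 1 Whole arrays, 56.2% in Tumor 2 Border and 20%, 57.1% and 42.5% in the Tumor 2 Whole arrays. The Tumor 2 values rest on 7 to 40 UMIs per library. In C1q+ cells of Tumor 1 the share was 50%, 50% and 45.5%, with 6 to 16 UMIs per array, and in Tumor 2 it was 33.3% at the border and 17.9%, 33.3% and 30.9% in the arrays. The interval of C1q+ cells overlapped that of neutrophil-like cells in each of these 7 libraries, so the gap between these classes was seen in the pooled values and was not resolved within a library.

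The first comparison asked how tumor-like cells differ from macrophages of the same arrays. Respiratory chain genes were higher in Krt+ tumor-like cells: of 52 members tested in the 3 Tumor 1 Whole arrays, 35 rose and none fell (edgeR quasi-likelihood test with array as a block, adjusted p under 0.05 over all 3195 genes). Among all genes tested, 26.4% were higher and 19.7% lower. The median log2 fold change of the members was 1.51, and that of all genes 0.14. Complex IV rose in all 10 members tested and complex V in 11 of 12, while complex I rose in 10 of 20, complex III in 3 of 7 and complex II in 1 of 3. The members tested are those that passed a filter on low counts.

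Atp5b was at 693, 865 and 739 CPM in Krt+ cells and at 611, 378 and 344 CPM in C1q+ macrophage-like cells of the same arrays, a log2 difference of 1.25 ± 0.36 (SE; edgeR adjusted p = 0.00184). Every Krt+ value was above every C1q+ value. Cox4i1 was at 761, 1044 and 601 CPM against 256, 351 and 413 CPM, again without overlap (log2 1.66 ± 0.37, edgeR adjusted p = 3.90e-05). The largest fold changes were those of Atp5o, which joins the stalk of ATP synthase to its head (log2 3.24 ± 0.68, edgeR adjusted p = 1.23e-05), and of 3 complex I subunits. These rest on few UMIs in the C1q+ cells, and members that are low in one class can pass the filter on low counts through the other, which favours large fold changes. Atp5o was at 136, 165 and 122 CPM against 19.7, 13.2 and 34.4 CPM. Ndufa8 (log2 2.95), Ndufv1, which carries the NADH site (2.77), and Ndufa7 (2.72) followed, with Atp5j of the ATP synthase stalk at 2.68. In C1q+ cells of the 3 arrays together Atp5o had 5 UMIs, Ndufa8 4, Ndufv1 6, Ndufa7 11 and Atp5j 9, against 80, 49, 56, 118 and 81 in Krt+ cells. The ratio of UMI rates, without TMM, was 7.57 for Atp5o (95% counting interval 3.11 to 23.9) and 5.79 for Ndufa8 (2.12 to 22.1). The intervals of all 5 overlapped, so their order was not resolved. Uqcrc1, a core subunit of complex III, did not pass: it was at 84.0, 80.6 and 106 CPM against 158, 106 and 120 CPM.

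Of the other genes of the pathway, the 7 mt-encoded chain genes that could be tested all rose, with a median log2 of 1.24, and the Krt+ mt- share was 12.7%, 11.2% and 20.1% in the 3 arrays. Of related respiratory genes outside the symbol rule 5 of 10 rose, among them Slc25a4, which exchanges ADP and ATP (log2 2.54), and Atpif1, the inhibitor of ATP synthase (2.46). Of citric acid cycle genes 1 of 8 rose. Glycolysis genes went both ways, with 6 of 12 higher, such as Tpi1 (1.88) and Ldha (1.52), and 3 lower: Pfkfb3, Hk2 and Slc2a1. The test rests on sums of 14 to 23 C1q+ and 30 to 61 Krt+ barcodes per array. Without array 2, 11 members were called, and without array 3, 18. The share of all genes called in these fits is not given here. With DESeq2, 12 members were called, beside 13.6% of all genes higher. Without TMM scaling the median of all genes moved to -0.29 and lower genes went from 42.6% to 59.3% of all calls. In that fit 22 members rose, beside 17.9% of all genes.

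**Figure D3:**
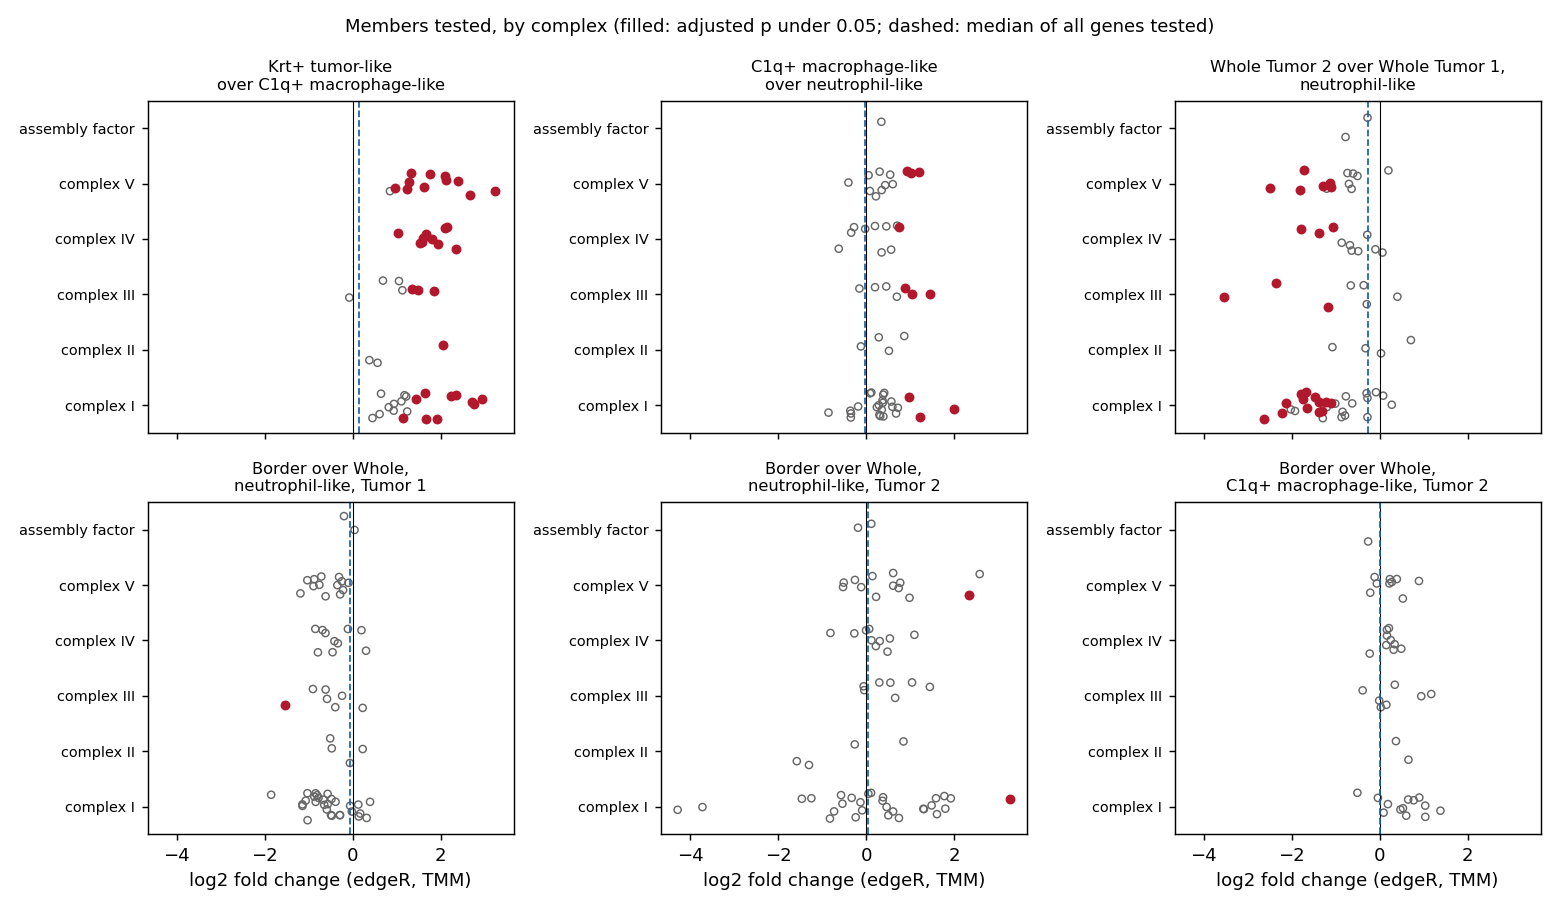
Log2 fold change (x axis) of each respiratory chain member tested, by complex, in 6 comparisons; filled red points passed an adjusted p of 0.05 (edgeR), the solid line marks 0 and the dashed line the median of all genes tested. Of 52 members 35 are filled in the Krt+ over C1q+ panel, all to the right, and 25 of 65 in the panel of Whole Tumor 2 over Whole Tumor 1, all to the left.

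Macrophages and neutrophils, the next pair, were compared within 7 libraries holding both classes. These come from both tumors and include a border library. The spread in this test therefore also holds how the class difference varied between tumors and regions. Of 58 members tested, 10 were higher in C1q+ macrophage-like cells and none lower, which is 17.2% beside 19.4% of all genes higher and 20.6% lower, so the share of members higher was close to that of all genes. Of the 10, 1 was called without the filter on low counts and 4 with at least 3 markers per barcode. The members' median was 0.36 on the log2 scale, and that of all genes -0.02. The largest changes were those of Ndufc2 (log2 2.01 ± 0.46, edgeR adjusted p = 0.00207) and Uqcr11 (1.44), small subunits of complexes I and III, and of Ndufa10 (1.22), Atp5g3 (1.20) and Uqcrc1 (1.05). Atp5b also rose (1.02). The mt-encoded genes moved with them more evenly, with 6 of 7 higher and a median of 0.95. Of glycolysis genes 3 of 14 were lower in the macrophages, among them Hk3, a hexokinase of myeloid cells (fell by 2.26).

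The shares behind this comparison are given here for each tumor. In Tumor 1 Whole the C1q+ share of member UMIs was 0.535%, 0.547% and 0.595%, and the neutrophil-like share 0.635%, 0.572% and 0.581%, which overlap. In Tumor 2 Whole the C1q+ share was 0.567%, 0.321% and 0.421% and the neutrophil-like share 0.226%, 0.151% and 0.210%, with every C1q+ value higher. That difference between tumors was not tested.

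Neutrophil-like cells were the only immune class with at least 10 barcodes in all 8 libraries, so the border and the whole tumor could be compared in both mice. In Tumor 1 the member share was 0.318% (95% interval 0.307 to 0.329) at the border and 0.635%, 0.572% and 0.581% in the Whole arrays (mean 0.596% ± 0.0339 SD, n = 3 arrays). In Tumor 2 it was 0.330% (0.306 to 0.355) at the border and 0.226%, 0.151% and 0.210% in the arrays (0.196% ± 0.0394). The border share lay below all arrays in Tumor 1, at 0.533 of their mean, and above all arrays in Tumor 2, at 1.69 times their mean. Both border libraries were near each other, and the whole tumors were far apart. The mt-encoded mRNAs of the chain moved in the same directions and by similar ratios. In Tumor 1 they took 0.173% of UMIs at the border and 0.411%, 0.301% and 0.369% in the arrays, a ratio of 0.480 to their mean. In Tumor 2 they took 0.288% at the border and 0.220%, 0.106% and 0.192% in the arrays, a ratio of 1.67. Members per UMI of these mRNAs were 1.84 at the border and 1.67 ± 0.196 in the arrays of Tumor 1, and 1.15 and 1.18 ± 0.213 in Tumor 2, differences below the SD of the arrays. The mt- ribosomal RNAs, 91.6% to 97.6% of mt- UMIs in these libraries, moved less, with 3.76% at the border against 4.50%, 4.22% and 5.10% in Tumor 1 and 4.38% against 5.63%, 4.28% and 3.69% in Tumor 2.

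**Figure D4:**
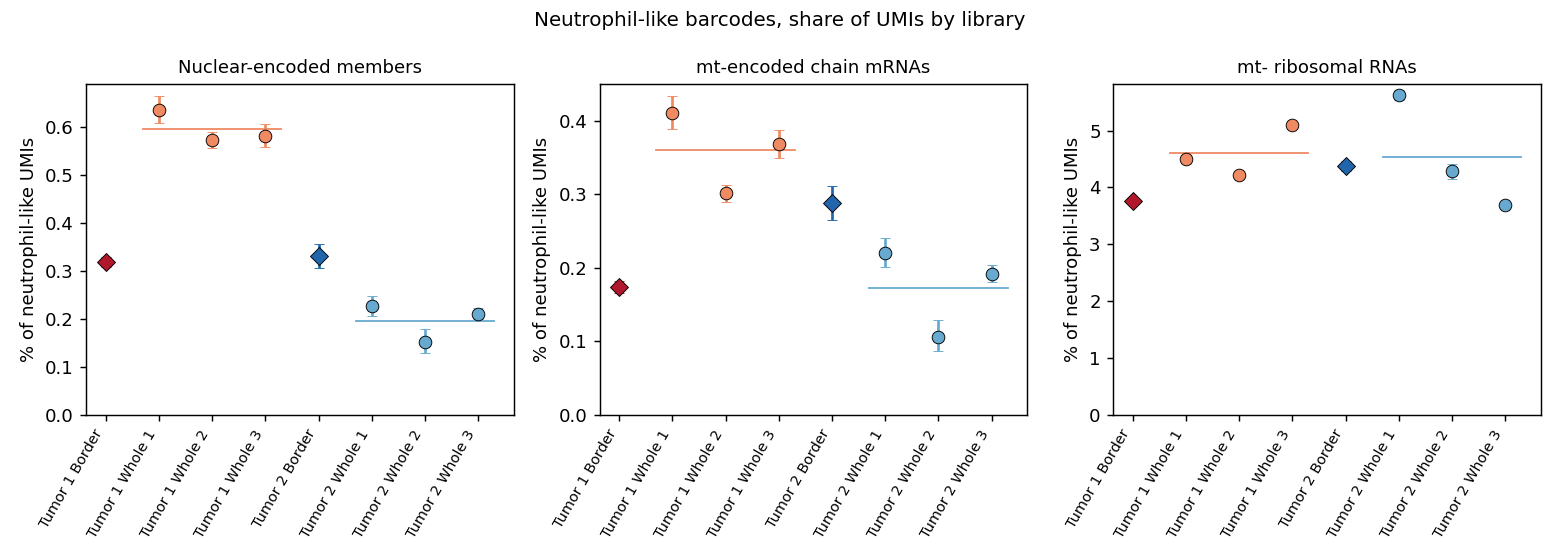
Share of neutrophil-like UMIs in each library (x axis) taken by the nuclear-encoded members (left), the mt-encoded chain mRNAs (middle) and the mt- ribosomal RNAs (right), in percent; error bars are exact 95% binomial intervals, which cover counting error only, and horizontal lines are the means of the 3 arrays of a tumor. On the left the border is below the arrays in Tumor 1 (0.318% against 0.572% to 0.635%) and above them in Tumor 2 (0.330% against 0.151% to 0.226%), and in the middle panel the border likewise lies below the arrays in Tumor 1 and above them in Tumor 2.

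Levels of the neutrophil markers were alike in the 4 Tumor 1 libraries and differed between border and whole in Tumor 2. The 8 neutrophil markers summed to 51.1 to 61.6 UMIs per 10000 in the 4 Tumor 1 libraries, 81.1 in Tumor 2 Border and 154 to 162 in the Tumor 2 arrays, with all 8 detected in each library. Each of the 11 lists of other classes was at most 3.06 per 10000 in any library's neutrophil-like cells. The gate asks for more neutrophil markers than markers of any other list. Low levels of the other lists are therefore partly set by the gate and do not measure purity. Retnlg, a resistin-like protein, and Hdc, histidine decarboxylase, are both in the neutrophil list, and together made up 3.53 to 8.28 UMIs per 10000 in Tumor 1, 18.2 in Tumor 2 Border and 38.2 to 44.4 in the Tumor 2 arrays. In barcodes with a UMI of either gene the member share was 0.277% at the border and 0.592% ± 0.0590 in the arrays of Tumor 1, and 0.351% and 0.179% ± 0.0360 in Tumor 2. In barcodes with neither, the Tumor 1 values were 0.355% and 0.597% ± 0.0165. In Tumor 2 these were few, with 0.210% at the border (19 barcodes, median 1376 UMIs) and 0.263% and 0.403% in 2 arrays (15 and 11 barcodes), so there the border was lower. The 50 most abundant genes took 37.5% of UMIs in Tumor 1 Border against 27.5% to 28.5% in its arrays, and 33.7% in Tumor 2 Border against 38.5% to 41.0%. The part of these differences in the member share was not tested beyond these values.

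Gene by gene, few members passed at the border. In Tumor 1, 1 of 65 members was lower and none higher, where 1.53% of all 6159 genes were lower and 6.51% higher (12 members had an unadjusted p under 0.05, and DESeq2 called none). The share of members called lower was thus close to that of all genes. The members' median log2 fold change was -0.49 and that of all genes -0.06, and 53 of 65 members were below the median of all genes. The fit takes the border's only library to vary like the technical arrays. The member that fell was Uqcrc1, a core subunit of complex III, with 22.7 CPM at the border and 113, 90.6 and 86.2 CPM in the arrays (log2 -1.54 ± 0.43, edgeR adjusted p = 0.0153). Its call was lost without the filter on low counts and in both sets of barcodes split by Retnlg or Hdc, with log2 fold changes of -1.44, -1.70 (neither gene) and -1.57 (either gene). Atp5b was at 224 CPM against 466, 375 and 398 CPM, outside the arrays, without passing (edgeR adjusted p = 0.538). None of the 7 mt-encoded mRNAs tested passed, with all 7 below 0 and a median of -0.53, and of glycolysis genes 2 of 15 rose, the glucose transporter Slc2a1 (log2 1.08) and Pfkfb3 (1.22), which makes the activator of phosphofructokinase.

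In Tumor 2, 2 of 65 members were higher at the border and none lower, beside 2.89% of all genes higher and 4.79% lower (9 members had an unadjusted p under 0.05), again a share close to that of all genes. The members' median was 0.23 and that of all genes 0.04. Atp5g3, a gene for subunit c of the ATP synthase ring, was at 105 CPM at the border and 22.7, 20.4 and 10.8 CPM in the arrays (log2 2.33 ± 0.56, edgeR adjusted p = 0.00504). Ndufc1, a small complex I subunit, had 10 UMIs at the border and 0, 1 and 2 in the arrays. Its ratio of UMI rates was 13.9, with a counting interval of 3.58 to 78.7 (edgeR adjusted p = 0.0416). Sdha went the other way without passing, at 38.2 CPM against 63.5, 71.4 and 73.9 CPM. In neutrophil-like barcodes with neither Retnlg nor Hdc, the log2 fold changes of Atp5g3 and Ndufc1 turned to -0.68 and -5.41, on 19 border barcodes. Without Tumor 2 Whole array 3 neither passed, and without Tumor 1 Whole array 2, Tumor 1 Whole array 3 or Tumor 2 Whole array 1, 1 of them did. Slc2a1 and Pfkfb3 fell at this border by 1.48 and 2.38 on the log2 scale, and Hk2 rose by 2.41.

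The difference between the 2 tumors in border over whole was tested directly. Of 65 members 3 were lower in this contrast, Tumor 1 minus Tumor 2, and none higher, beside 2.92% of all genes lower and 7.03% higher. They were Ndufc1 (log2 -4.31 ± 1.29, edgeR adjusted p = 0.0247), Atp5g3 (-3.22 ± 0.68, edgeR adjusted p = 0.000803) and Cox6c, a complex IV subunit (-1.95 ± 0.65, edgeR adjusted p = 0.0460). Cox6c was at 47.4 CPM at the Tumor 1 border against 148, 108 and 122 CPM, and at 76.5 CPM at the Tumor 2 border against 22.7, 30.6 and 27.0 CPM. Without Tumor 1 Whole array 3 or Tumor 2 Whole array 3, 1 member was called lower, in fits whose share of all genes called is not given here. With DESeq2, 1 was lower, beside 0.974% of all genes. By sign, 35 of 65 members were lower at the Tumor 1 border and higher at the Tumor 2 border. Taken singly, 55 were lower in Tumor 1 and 40 higher in Tumor 2, so many would do both with unrelated signs. The same count over all genes is not given, so the 35 are not read as a result about the members. Cox6a1 had 185 CPM against 353, 273 and 241 CPM in Tumor 1 and 220 CPM against 123, 153 and 132 CPM in Tumor 2, with no call in either.

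**Figure D5:**
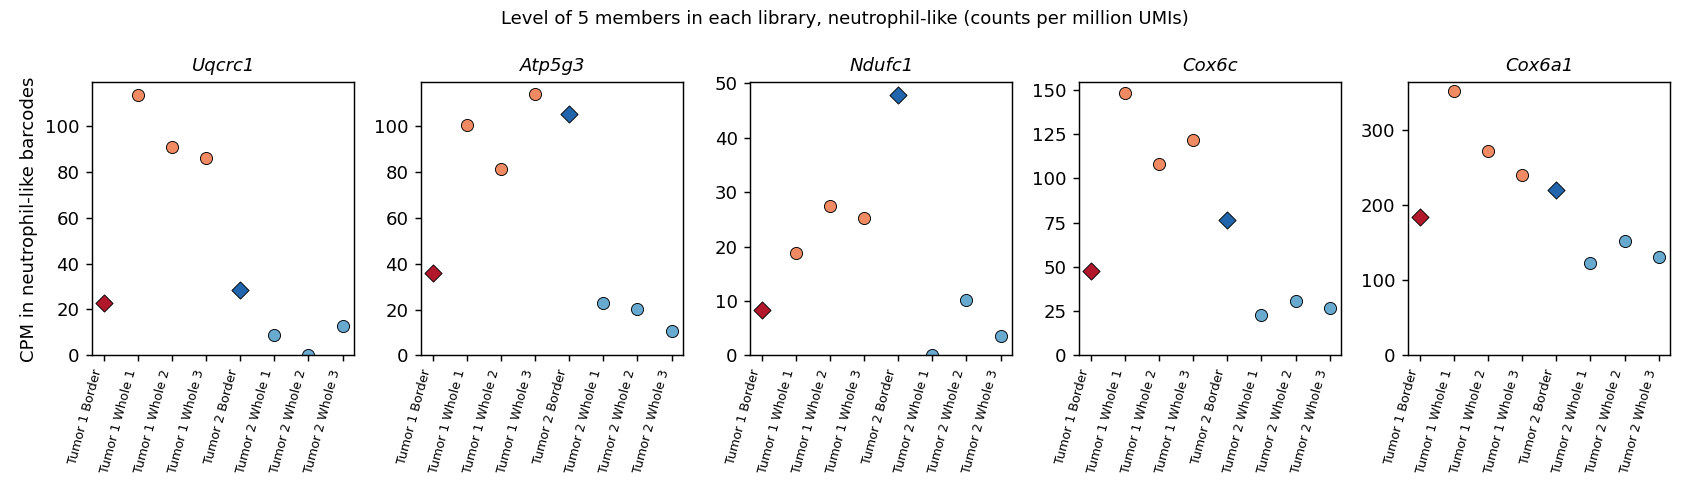
Level of 5 members in neutrophil-like cells of each library (y axis, CPM; diamonds Healthy/Tumor Border, circles Whole Tumor arrays, red Tumor 1, blue Tumor 2). For Atp5g3 the border point lies below the arrays in Tumor 1 (36.1 CPM) and above them in Tumor 2 (105 CPM).

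More members passed between the whole tumors of the 2 mice than between border and whole. The first contrast sets 3 arrays against 3 and the second 1 library against 3, so these counts do not rank the differences. In neutrophil-like cells of Whole Tumor 2 against Whole Tumor 1, 25 of 65 members were lower and none higher, beside 21% of all genes lower and 22.3% higher. The members' median was -0.87 and that of all genes -0.25, with 56 of 65 members below the median of all genes. Complex I was lower in 13 of 29 members tested, complex V in 6 of 13, complex III in 3 of 7 and complex IV in 3 of 10. Complex II passed in 0 of 4, and Sdha had a log2 fold change of 0.03. After TMM scaling the mt-encoded genes passed in 0 of 7, with a median of -0.09. Without scaling, the mt-encoded mRNAs took a mean of 0.360% of UMIs in the Tumor 1 arrays and 0.173% in the Tumor 2 arrays.

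Uqcrc1 was at 113, 90.6 and 86.2 CPM in Tumor 1 and at 9.08, 0 and 12.6 CPM in Tumor 2 (log2 -2.36 ± 0.46, edgeR adjusted p = 4.86e-05). This comparison shares the Tumor 1 Whole arrays with the Tumor 1 border contrast, in which the same gene fell. Ndufb8, an accessory subunit of complex I, was at 85.0, 86.0 and 96.3 CPM against 9.08, 20.4 and 9.01 CPM (log2 -2.22 ± 0.45, edgeR adjusted p = 9.34e-05). Atp5k, the e subunit of ATP synthase, was at 69.3, 44.7 and 32.9 CPM against 4.54, 0 and 5.41 CPM (-2.49 ± 0.66, edgeR adjusted p = 0.00215). Uqcrb, a subunit near the ubiquinone site of complex III, had 46 UMIs in Tumor 1 and 1 in Tumor 2, a ratio of rates of 0.0394 with a counting interval of 0.000977 to 0.231. Ndufa12, of complex I, had 44 and 2 UMIs (ratio 0.0825, interval 0.00968 to 0.316). In all 5 genes no Tumor 2 array reached the lowest Tumor 1 array. In the Tumor 2 arrays Uqcrb had 1, 0 and 0 UMIs, Ndufa12 0, 1 and 1, and Atp5k 1, 0 and 3. Uqcrc1 had 2, 0 and 7 there, and Ndufb8 2, 2 and 5. All 5 genes could thus pass the filter on low counts through Tumor 1 alone, which favours their place among the largest changes. Their fold changes rest on these few UMIs. Atp5b fell by 1.28 on the log2 scale (466, 375 and 398 against 113, 61.2 and 93.7 CPM), whereas Cox4i1 did not pass (230, 250 and 291 against 182, 71.4 and 162 CPM, log2 0.06 after scaling).

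Among the other lists, 4 of 10 citric acid cycle genes were lower in Whole Tumor 2 and none higher, with Mdh2, mitochondrial malate dehydrogenase (fell by 1.81), and Cs, citrate synthase (fell by 1.51), among them. Of 14 related respiratory genes 3 were lower, Cyc1 of complex III (fell by 1.99), Etfb (by 2.51) and Vdac2 (by 0.96), and the phosphate carrier Slc25a3 was higher (log2 1.50). Glycolysis genes went both ways, with 5 of 15 higher, led by Pfkfb3 (2.62) and Slc2a1 (2.04), and 2 lower, Hk2 and Tpi1. Of 6 regulators tested 1 passed, Gabpb1, a subunit of the factor GABP (1.04). DESeq2 called 16 members lower, beside 13.6% of all genes lower in the same fit. Without Tumor 2 Whole array 3 edgeR called 16. In neutrophil-like barcodes with neither Retnlg nor Hdc, 0 members passed (15 and 11 barcodes in the 2 Tumor 2 arrays used), and in those with either gene 18 were lower. For these splits and the fit without array 3, the share of all genes called is not given here. Their counts are not read as results about the members. This contrast could reflect the mouse, its sex, the tumor, the makeup of the neutrophil-like class or the sample's handling. These cannot be told apart with 1 mouse per tumor.

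Scaling decided how many members passed in these neutrophil-like contrasts. TMM sets factors so that most genes are centred, and without it the median of all genes moved to -0.60 for the Tumor 1 border, 0.48 for the Tumor 2 border, -1.06 for their difference and -1.11 for Whole Tumor 2 over Whole Tumor 1. The share of lower genes among all calls then went from 19.0% to 84.4%, from 62.4% to 22.5%, from 29.4% to 86.4% and from 48.6% to 83.3%. Of 65 members, 20 were then lower at the Tumor 1 border beside 13.6% of all genes, and 5 were higher at the Tumor 2 border beside 8.54%. In their difference 22 were lower beside 17.5% of all genes, and between the whole tumors 60 were lower beside 55.4%. The gap between the members' median and that of all genes hardly moved, at -0.43 with and without TMM in Tumor 1, 0.18 and 0.19 in Tumor 2, and -0.61 and -0.62 between the whole tumors.

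Among the other named cell classes the border could be set beside the whole tumor only in Tumor 2, since Tumor 1 Border held 2 C1q+ and 8 Krt+ barcodes. Barcodes that no list took were at 0.211% at the Tumor 1 border against 0.369% to 0.507% in its arrays, and at 0.630% against 0.349% to 0.560% in Tumor 2. Satellite-rich barcodes were at 0.222% against 0.224% to 0.345% in Tumor 1 and at 0.226% against 0.189% and 0.220% in Tumor 2. The member share at the Tumor 2 border was above all 3 arrays in each of 5 other classes: C1q+ macrophage-like (0.594% against 0.567%, 0.321% and 0.421%), alveolar macrophage-like (0.952% against 0.787%, 0.843% and 0.780%), dendritic-like (0.651% against 0.534%, 0.396% and 0.586%), B-like (0.433% against 0.411%, 0.248% and 0.421%) and T or NK-like (0.581% against 0.454%, 0.342% and 0.416%). Array 2, the shallowest, was the lowest in all of these except alveolar macrophage-like cells. The counting interval of the border overlapped that of the nearest array in all of them except T or NK-like cells. The mt-encoded mRNAs of the chain were also above all 3 arrays at this border in C1q+ (0.876% against 0.697%, 0.637% and 0.434%), dendritic-like (0.681% against 0.629%, 0.363% and 0.579%), B-like (0.885% against 0.842%, 0.815% and 0.737%) and T or NK-like cells (0.969% against 0.730%, 0.580% and 0.639%). In alveolar macrophage-like cells they were within the arrays (0.773% against 0.867%, 0.485% and 0.790%). In the test on C1q+ cells none of 41 members passed in either direction, and 0 had an unadjusted p under 0.05, beside 0.0825% of all genes higher and 0.0275% lower, and DESeq2 called none. The members' median was 0.28 and that of all genes 0.01. B-like cells had 0.723% and 0.726% in 2 Tumor 1 arrays (12 and 10 barcodes) against 0.360% ± 0.0969 in the Tumor 2 arrays (n = 3), values that do not overlap.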

How the data were processed

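Seq-Well libraries of 2 mice (1 Healthy/Tumor Border library and 3 technical Whole Tumor arrays per tumor) were analysed. The deposited tables hold raw UMI counts per gene and barcode, made by the authors with bcl2fastq 2.17.1.14, a Drop-seq pipeline and STAR 2.5.2b against mm10, as listed in the submitters' processing notes and the study's methods; the annotation version is not given in the sources used here. Barcodes with at least 200 genes were gated by 13 marker lists. The values of 1 class and 1 allele of the mice are not reported here. Scrublet in scanpy 1.11.5 marked 57 (1.46%) of 3894 barcodes as doublets, which were kept in the main values. Shares are UMIs of members over all UMIs, with exact Clopper-Pearson 95% intervals that cover counting error only.

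For tests, UMIs were summed per library and class (at least 10 barcodes) and fitted with edgeR 4.0.16 in R 4.3.3 (TMM, filterByExpr, glmQLFit, glmQLFTest), with Benjamini-Hochberg adjustment over all genes tested and a threshold of 0.05. The SE is the absolute log2 fold change over the square root of F. The fits were also run on counts simulated with their own fitted spread, with as many genes raised as lowered. Those runs cannot cover the unknown spread of a single border library or a shift of most genes in 1 direction. CPM were computed here from the counts and carry no TMM factor, whereas log2 fold changes do. Where a group had 1 to 3 UMIs, the ratio of UMI rates has an exact conditional binomial interval. Class contrasts used library as a block, and border contrasts used all 8 neutrophil-like sums. Nothing in the labels says that arrays come from separate animals. Named genes were the most abundant members of each complex (the top 2 of complexes I, IV and V), up to 5 called members with the largest fold change per comparison and direction, and isoform sets. Cox7c and Atp5l, and the genes named from the pathway lists, were singled out after their values were seen. Alternatives covered DESeq2 1.42.0, no TMM, no filter, no mt- genes, 3 markers, summed marker UMIs, 500 genes or all barcodes, at most 25% mt- UMIs, doublets removed, medians, other denominators, thinned sums, other library subsets and leaving out each array; splits by Retnlg or Hdc and doublet-free fits were chosen after seeing the data. Members, gene lists, marker lists and tests were chosen with earlier results of these data known.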

Additional observations from a re-analysis of the deposited data

Results flagged for a closer look

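Border over whole in neutrophil-like cells differed between the 2 tumors by the direct test for 3 members: Ndufc1, with a Tumor 1 minus Tumor 2 log2 difference of -4.31, Atp5g3 (-3.22) and Cox6c (-1.95). These are 3 of 65 members, beside 2.92% of all genes lower and 7.03% higher in the same test. With DESeq2 or without array 3 of either tumor 1 of the 3 kept its call, and in barcodes with neither Retnlg nor Hdc the Ndufc1 difference was 2.92. The Ndufc1 value rests on 10 UMIs at the Tumor 2 border and 3 over the Tumor 2 arrays. The member share went in opposite directions in the 2 tumors, a difference that was not tested. In neutrophil-like barcodes it was -0.278 percentage points (border minus the mean of the arrays) in Tumor 1 and 0.134 in Tumor 2. In satellite-rich barcodes it was -0.0709 in Tumor 1 and 0.0214 in Tumor 2, where only 2 arrays had enough barcodes. In barcodes that no marker list took it was -0.214 in Tumor 1 and 0.169 in Tumor 2. The mt- share of these last barcodes was 6.08% at the Tumor 1 border against 9.07% to 13.6% in its arrays, and 11.3% at the Tumor 2 border against 9.25% to 12.0%.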

How the results depend on the processing

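Depth was lowest in Tumor 2 Whole array 2, with a neutrophil-like median of 596 UMIs, and intervals cover counting error only. The causes of the changes below were not tested, and the splits by Retnlg or Hdc were chosen after seeing the data. Where no share of all genes called is given, a count of members is not read as a result about them. The difference in neutrophil-like member share between border and whole (percentage points) was -0.316 in Tumor 1 and 0.175 in Tumor 2 without the 50 most abundant genes in the denominator, and 0.0724 in Tumor 2 as a median over barcodes. It was -0.242 and -0.123 in barcodes with neither Retnlg nor Hdc, a reversal in Tumor 2, and -0.315 in Tumor 1 in those with either. The difference in all mt- UMIs, mostly ribosomal RNA, in Tumor 1 was -0.548 as a median and -1.52 in barcodes with either gene, and that in Tumor 2 (-0.0358) was 0.534 without array 1. C1q+ minus neutrophil-like in Whole Tumor 1 was -0.0931 with 3 markers and reversed to 0.0150 as a median and 0.0341 without the 50 genes. In Whole Tumor 2 it was 0.396 without the 50 genes, 0.103 with neither gene, and 0.190 to 0.276 leaving out an array. Krt+ minus C1q+ was 0.556 (3 markers), 0.362 (median), 0.660 (at most 25% mt-), 0.628 (no mt- in the denominator), 1.06 (without the 50 genes) and 0.412 to 0.538 leaving out an array. Members called in C1q+ over neutrophil-like were 1 higher and 1 lower without the filter, 4 higher with 3 markers and 2 higher in Tumor 1 alone. Krt+ over C1q+ gave 12 with DESeq2 (13.6% of all genes higher) and 22 without TMM (17.9%). It gave 21 with 3 markers and 11 to 29 leaving out an array, 11 without array 2 and 18 without array 3. At the Tumor 1 border 0 were lower with DESeq2, without the filter and with neither gene, 20 without TMM and 2 in Tumor 1's own 4 libraries. At the Tumor 2 border 1 was higher with DESeq2, without the filter, with 500 genes and in Tumor 2's own 4 libraries, 5 without TMM, 0 with neither gene and 0 to 2 leaving out an array, 0 without Tumor 2 Whole array 3. Their difference gave 1 (DESeq2), 22 (no TMM), 0 (neither gene) and 1 to 3 leaving out an array, 1 without array 3 of either tumor. Whole Tumor 2 over Tumor 1 gave 16 with DESeq2 (13.6% of all genes lower) and 60 without TMM (55.4%). It gave 0 with neither gene and 16 to 25 leaving out an array, 16 without Tumor 2 array 3. With neither gene Ndufc1 at the Tumor 2 border was -5.41, Atp5g3 -0.68 and the Ndufc1 difference 2.92. Of the values of named genes under these alternatives, 227 kept direction and side of the threshold, 51 lost the call and 3 reversed. With array number as a replicate block over the 6 Whole arrays, 21 members were lower; numbers did not pair the arrays (correlations of deviations -0.012, 0.002 and 0.006), and without the block those arrays gave 26.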
